A study of Mus musculus with 18 samples.

Results

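The 38 Hox genes examined here were the rows of the count table whose symbols belong to the Hox clusters A, B, C and D, out of 24111 rows. RNA was sequenced from mpkCCD cells, an immortalised mouse line grown from the cortical collecting duct of the kidney and used as a model of its principal cells. Control cells stood for 24 h in serum-free medium and then 24 h more in the same medium, and treated cells were given 0.1 nM dDAVP (desmopressin, an agonist of the vasopressin V2 receptor) over the second period. Each treatment had 9 libraries, called control 1 to 9 and dDAVP 1 to 9 here, all from cells grown on permeable supports, and every value describes a single immortalised line. The libraries were also compared as replicates 1-3, 4-6 and 7-9 (6 libraries each, 3 per treatment). The labels do not say what the numbers stand for, nor that equal groups were separate cultures, so the p-values measure only the spread between these samples, which may be technical.

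Hox genes encode homeodomain transcription factors that give cells their position along the body axis. In mammals they lie in 4 clusters, and genes at matching places in the clusters form paralog groups, numbered from the end that is active first and most anteriorly (1) to the end that is active last and most posteriorly (13). In the kidney, the Hox11 genes are known for their role in the metanephric mesenchyme, which gives rise to the nephrons, whereas the collecting duct grows from the ureteric bud. The promoter of Hoxb7 is widely used to drive transgenes in the ureteric bud and collecting duct.

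Library totals ranged from 22.2 to 105.9 M counts, and 3 counts, the most that a count of 0 allows by counting error, came to 0.0143 to 0.359 normalised CPM (counts scaled to library size and by edgeR's TMM factors of 0.306 to 3.16). Aqp2, the water channel that vasopressin induces, was higher with dDAVP by 4.63 on the log2 scale (SE 0.72, adjusted p = 0.00504, edgeR quasi-likelihood test with the replicate set as a term). Without that term it was higher by 4.54 and did not pass (edgeR adjusted p = 0.203). Fitted within sets, Aqp2 passed in replicates 1-3 (6.32, edgeR adjusted p = 6.09e-06). It did not pass in replicates 4-6 (4.14, edgeR adjusted p = 0.772) or 7-9 (3.31, edgeR adjusted p = 0.938). Between 10 and 12 of 12 principal cell markers had counts in each set of replicates, while 3 endothelial markers were at 0 throughout and the summed stromal markers did not pass 1.09 CPM. By the same measure, 5 of 5 intercalated cell markers had counts in replicates 7-9 and 3 of 3 thick ascending limb markers in replicates 1-3. Summed principal cell markers, Aqp2 among them, had medians of 810, 655 and 359 CPM in the 3 sets. Of these markers, Aqp4 and Elf5 had 3 and 1 counts in all, and Aqp3 averaged 0.0378 CPM in replicates 1-3. Of 9 tested, 3 were higher and 2 lower in 4-6 than in 1-3, beside 55.9% of all genes called. Between 7-9 and 1-3, 2 were higher and 4 lower, beside 63.7%. Summed markers of other kidney cells reached 36.4 CPM (thick ascending limb), 19.7 CPM (intercalated cell) and 10.9 CPM (proximal tubule) in single libraries, and those of immune cells 13.8 CPM; their medians by set were at most 7.37 CPM. The summed CPM of 5 general epithelial markers ran from 11299 to 19542 in replicates 1-3, from 1515 to 2685 in replicates 4-6 and from 3661 to 9832 in replicates 7-9. Control 8 correlated best with dDAVP 7 (r = 0.964 over 10102 genes other than the Hox genes, on log2 CPM) and control 7 best with dDAVP 8 (r = 0.852), so in replicates 7-9 some libraries stood nearer to one of the other label. The library dDAVP 6 had the fewest detected genes, 10282, against 12953 in the library with the most.

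Of the 38 Hox genes, 19 were expressed, meaning at least 1 normalised CPM in at least 4 of the 6 libraries of a set, in at least 1 set. Cluster B had 8 of 10 members expressed, cluster A 6 of 10 and cluster D 5 of 9, and none of the 9 members of cluster C was expressed. In all 3 sets 15 members were expressed. By paralog number, the expressed genes formed a block from 2 to 10, in which 18 of 27 members were expressed, or 18 of 21 outside cluster C. Above it, 1 of 9 members with numbers 11 to 13 was expressed (Hoxb13), and below it 0 of 2 with number 1. The grid of mean levels by cluster and paralog number shows this block.

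**Figure D1:**
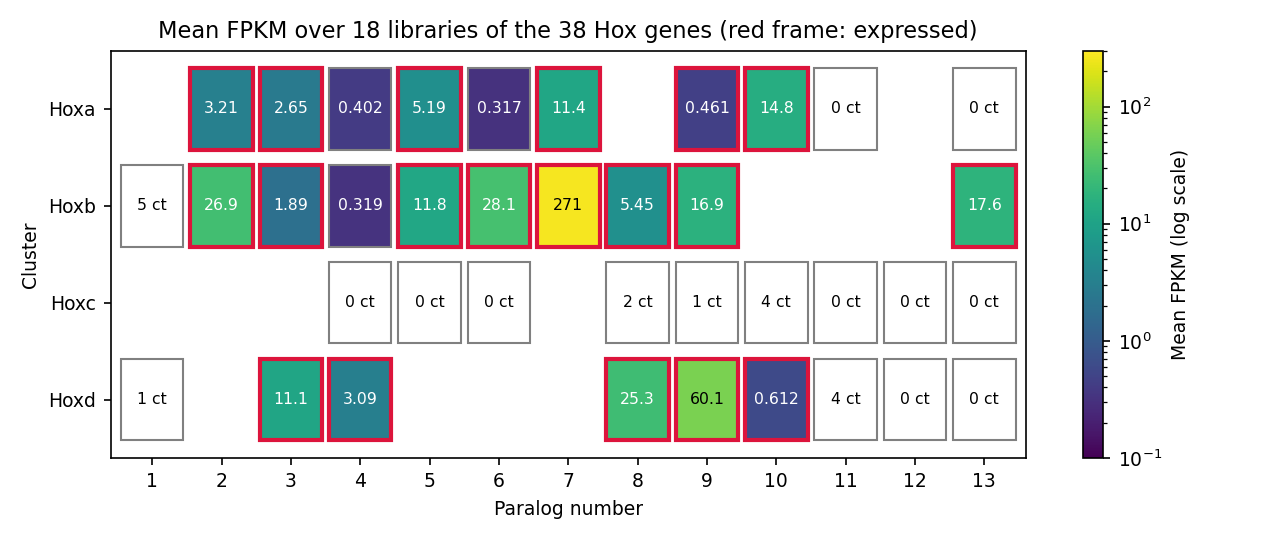
Hox genes by cluster (rows) and paralog number (columns). Each box is 1 of the 38 genes, filled and labelled with its mean FPKM over 18 libraries (log colour scale). White boxes are genes with under 10 counts in all, labelled with those counts (ct), and red frames mark the 19 expressed genes, which lie at numbers 2 to 10 in clusters A, B and D, plus Hoxb13.

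Taken over genes expressed in at least 1 set, the upper limit of the block fell between neighbours on both the A and the D cluster. In cluster D it rested on replicates 7-9. Hoxd10 reached 1 CPM in 5 of 18 libraries and was not expressed in replicates 1-3 or 4-6, where Hoxd9 had the highest number. On chromosome 6, Hoxa10 (GRCm38 chr6:52231197-52240854, minus strand) had 33086 counts in all, whereas Hoxa11 (chr6:52242106-52245810, minus strand), whose annotated end lies 1251 bases away, had 0. On chromosome 2, Hoxd10 (chr2:74691924-74695105, plus strand) had 1255 counts and Hoxd11 (chr2:74679557-74687016, plus strand), 4907 bases away, had 4. The 250 bases before the start of each of these 4 genes are printed because they stand on either side of the limit; they come from RefSeq on GRCm38.p6, run 5′ to 3′ on the gene's strand, and have their CpG dinucleotides in capitals. They lie at chr6:52240855-52241104 (Hoxa10), chr6:52245811-52246060 (Hoxa11), chr2:74691641-74691890 (Hoxd10) and chr2:74679308-74679557 (Hoxd11).
Hoxa10: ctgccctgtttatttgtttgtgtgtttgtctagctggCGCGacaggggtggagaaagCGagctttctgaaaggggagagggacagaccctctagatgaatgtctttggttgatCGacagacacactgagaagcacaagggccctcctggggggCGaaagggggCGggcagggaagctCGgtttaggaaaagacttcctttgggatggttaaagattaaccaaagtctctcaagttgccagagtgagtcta
Hoxa11: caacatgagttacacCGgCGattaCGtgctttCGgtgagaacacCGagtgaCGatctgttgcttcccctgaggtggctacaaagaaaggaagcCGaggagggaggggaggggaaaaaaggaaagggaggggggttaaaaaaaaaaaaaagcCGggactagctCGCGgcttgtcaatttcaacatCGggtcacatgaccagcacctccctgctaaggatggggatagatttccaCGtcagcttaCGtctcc
Hoxd10: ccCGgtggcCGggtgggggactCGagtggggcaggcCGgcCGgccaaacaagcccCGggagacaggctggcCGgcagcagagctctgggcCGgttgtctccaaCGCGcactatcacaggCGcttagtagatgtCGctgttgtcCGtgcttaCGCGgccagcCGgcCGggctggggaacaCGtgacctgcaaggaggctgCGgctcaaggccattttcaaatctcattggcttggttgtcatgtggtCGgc
Hoxd11: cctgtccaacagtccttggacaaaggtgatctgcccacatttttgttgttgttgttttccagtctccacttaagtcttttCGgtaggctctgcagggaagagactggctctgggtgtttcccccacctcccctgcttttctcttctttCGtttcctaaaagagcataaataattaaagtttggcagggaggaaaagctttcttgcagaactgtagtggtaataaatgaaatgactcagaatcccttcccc

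The Hoxa10 promoter held 7 CpG and that of the silent neighbour Hoxa11 held 13. The order was the other way round in cluster D, with 20 CpG before Hoxd10 and 2 before Hoxd11. RefSeq promoters were matched for 22 of the 38 genes. Of the expressed cluster B genes only Hoxb8 was matched, so Hoxb7 was not, and of cluster C only Hoxc4. The starts of Hoxc4, Hoxd4, Hoxa9 and Hoxa7 lay 15461, 10049, 3719 and 3281 bases from the annotated 5′ end. Which start these cells use was not tested. The 12 matched promoters of expressed genes held a median of 9.5 CpG (3 to 28) and the 10 of genes not expressed a median of 13.5 (2 to 35). All 32851 promoters of the same length held a median of 6 (0 to 56). The letters TATAAA, the core of a TATA box, stood on either strand in 3 of 22 Hox promoters (Hoxb8, Hoxd4 and Hoxd13) and in 12.4% of all. The composite Hox and Pbx site TGATNNAT stood in 3 of 22 (Hoxa2, Hoxb1 and Hoxb8) against 7.68% of all, and the Meis site TGACAG in 2 of 22 (Hoxa2 and Hoxa3) against 15.9%. These searches covered both strands. The motifs can share letters, but in the promoters that held 2 of them, Hoxb8 and Hoxa2, the matches had no base in common.

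Levels of different genes were compared on the deposited FPKM scale, which is per transcript length. Hoxb7 had the highest median of the 38, 172 FPKM (41.1 to 820), above 97.2% of the 11722 genes with a median over 0. It was the highest Hox gene in 16 of 18 libraries, the exceptions being dDAVP 6, where Hoxd8 was highest, and dDAVP 8, where Hoxb9 was. Hoxd9 followed with a median of 50.0 FPKM (5.32 to 152), above 92.9% of genes. The ranges of these neighbours overlapped. After them came Hoxb6 at 15.2 (1.18 to 164), Hoxa10 at 13.5 (2.16 to 40.9), Hoxb9 at 9.46 (1.66 to 65.1), Hoxb5 at 8.24 and Hoxb2 at 8.23 FPKM. Each of these overlapped the next over the 18 libraries, so their order was not resolved beyond the spread.

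The remaining expressed members had medians of 5.37 (Hoxd8), 4.83 (Hoxa5), 4.40 (Hoxb8), 4.31 (Hoxd3), 3.65 (Hoxb13), 2.41 (Hoxa7), 1.55 (Hoxd4), 1.54 (Hoxb3), 1.43 (Hoxa2), 1.26 (Hoxa3), 0.371 (Hoxa9) and 0.266 FPKM (Hoxd10). Cluster B gave a median of 72.4% of the summed Hox FPKM of a library (30.1% to 87.2%), cluster D 20.2% (9.79% to 67.1%) and cluster A 7.48% (2.82% to 20.2%). The lowest share of cluster B and the highest of cluster D were both in dDAVP 6. Hoxb7 alone gave a median of 56.1% of the sum (16.1% to 81.4%).

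Paralogs of one number did not share one level. At number 7, Hoxb7 stood at 172 FPKM and Hoxa7 at 2.41; at number 9, Hoxd9 stood at 50.0, Hoxb9 at 9.46 and Hoxa9 at 0.371 (medians). At number 10, Hoxa10 stood at 13.5 and Hoxd10 at 0.266 FPKM. Of the 4 paralogs numbered 4, Hoxd4 was expressed, Hoxa4 (560 counts in all, in 15 libraries) and Hoxb4 (1225 counts in 14 libraries) were not, and Hoxc4 had 0 counts. Of those numbered 6, Hoxb6 was expressed and Hoxa6 had 274 counts in 9 libraries. In the mm10 annotation read here for positions (GENCODE M21) the Hoxa3 gene model spans Hoxa4, Hoxa5 and Hoxa6 on the same strand, and Hoxd3 overlaps Hoxd4. Whether the deposited counts assign shared reads to either gene is not stated, so the values of these genes are uncertain.

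Cluster C (GRCm38 chromosome 15) had 7 counts over all 18 libraries together: 4 in Hoxc10, 2 in Hoxc8, 1 in Hoxc9 and 0 in the other 6 genes. The silent members elsewhere were Hoxa11, Hoxa13, Hoxd12 and Hoxd13, all at 0, and Hoxb1, Hoxd11 and Hoxd1 with 5, 4 and 1 counts. In all, 10 of 38 members had 0 counts and 16 had under 10. These zeros allow at most the floor of 3 counts per library given above, by counting error alone. Hoxb13, the most posterior gene of cluster B, lies 74.0 kb from its nearest Hox neighbour, Hoxb9, and was the only expressed member numbered above 10.

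No Hox gene passed the test for dDAVP. Over all genes, 8 of 10121 were called (0.079%), and of the 19 Hox genes tested 0 were called by edgeR's quasi-likelihood test (adjusted p of 0.816 to 0.997) and 0 by DESeq2. At an unadjusted p under 0.05 there were 0 Hox genes and 610 of 10121 genes. The genes tested were those that passed the filter on low counts, and they were the same 19 that were expressed. The fitted difference was positive in 5 and negative in 14, with a median of -0.12 on the log2 scale against 0.02 over all genes. Without the set term, 0 of 10121 genes and 0 of the Hox genes were called (218 of all genes and 0 of the Hox genes at an unadjusted p under 0.05).

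Control libraries held 147 to 906 CPM of Hoxb7 (median 257), and dDAVP libraries held 23.0 to 713 CPM (median 221). The groups overlapped, and the libraries dDAVP 8 and dDAVP 9, at 23.0 and 30.6 CPM, were the lowest of all 18 on this scale. Their TMM factors, 3.16 and 2.76, were the largest. On the FPKM scale the lowest of the 18 was dDAVP 6, at 41.1 FPKM. The fitted difference was -0.92 (SE 0.48, 95% interval -1.91 to 0.08, edgeR adjusted p = 0.840). Hoxa2, a gene of the anterior end, lay between 1.59 and 14.4 CPM in control libraries (median 3.43) and between 0 and 6.25 CPM in dDAVP libraries (median 2.06), a difference of -0.97 (SE 0.55, interval -2.12 to 0.17). Hoxb3 lay between 1.89 and 20.7 CPM in control libraries (median 6.16) and between 0.846 and 19.7 CPM in dDAVP libraries (median 2.04), a difference of -0.85 (SE 0.42, interval -1.73 to 0.03). Both genes also overlapped between the treatments.

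The highest positive values were those of Hoxa10 and Hoxb9. Hoxa10 lay between 17.0 and 39.8 CPM in control libraries (median 25.2) and between 14.5 and 55.3 CPM in dDAVP libraries (median 35.2), a difference of 0.49 (SE 0.30, interval -0.12 to 1.11). Hoxb9 lay between 8.36 and 73.5 CPM in control libraries and between 12.2 and 63.0 CPM in dDAVP libraries, a difference of 0.45 (SE 0.36, interval -0.29 to 1.19). For Hoxd9, the second most abundant, the difference was -0.10 (interval -0.87 to 0.67), and for Hoxb8, a neighbour of Hoxb7, it was -0.02 (interval -0.78 to 0.75). The widest interval was that of Hoxd10, from -2.06 to 1.39, so that changes of several fold in that gene were not detectable with these libraries. Other intervals were wide too, among them those of Hoxb2 (-1.61 to 0.44), Hoxb6 (-1.55 to 0.55) and Hoxd3 (-1.41 to 0.61). Those of Hoxa7 (-1.30 to 1.03) and Hoxa9 (-1.27 to 1.04) were also wide. For no tested Hox gene does the lack of a call show a lack of change. The plot of fitted differences shows every interval crossing 0.

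**Figure D2:**
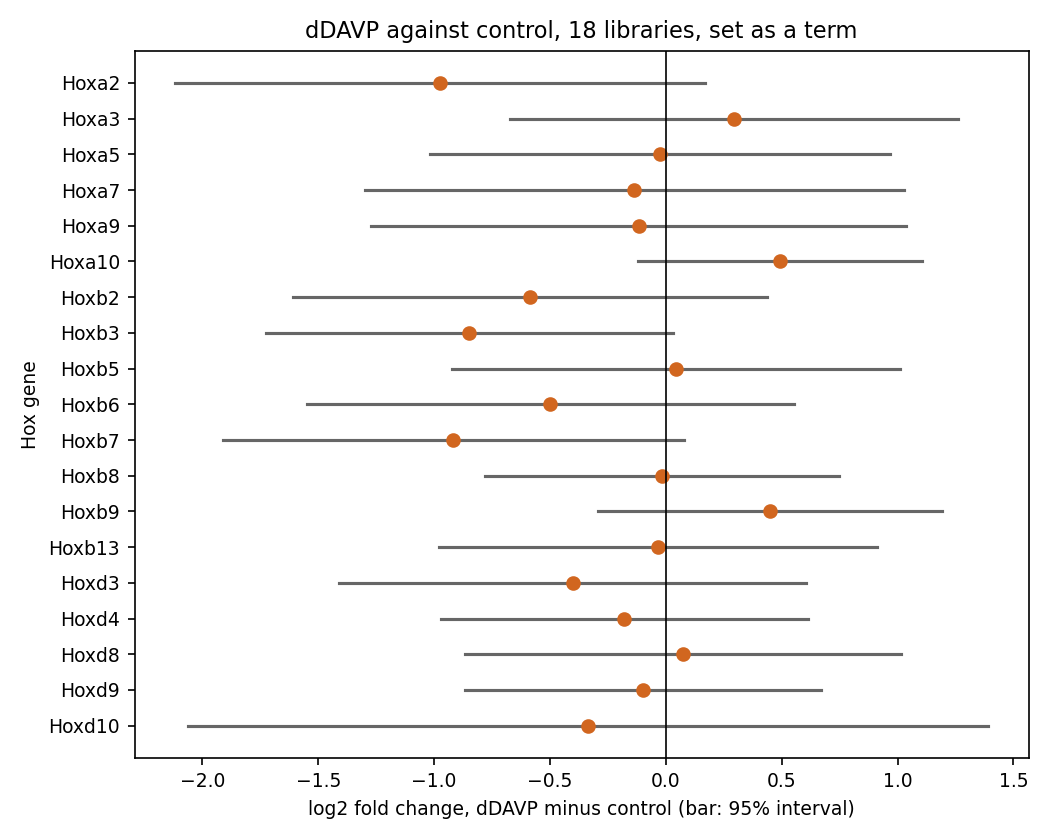
Fitted log2 fold change, dDAVP minus control, of the 19 tested Hox genes (points) with 95% intervals (bars), from 18 libraries with the replicate set as a term. The points lie between -0.97 (Hoxa2) and 0.49 (Hoxa10), and each bar crosses 0.

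Fits within each set also called 0 Hox genes, but in replicates 4-6 and 7-9 they called no gene at all. Not even Aqp2 passed there, at 4.14 and 3.31 on the log2 scale, so counts of 0 in these sets cannot show a lack of change. In replicates 1-3, 0 of 18 tested members passed against 41 of 8991 genes (0.456%; 0.378% higher and 0.0779% lower), in replicates 4-6 0 of 20 against 0 of 10387 (0%), and in replicates 7-9 0 of 22 against 0 of 11367 (0%), by edgeR. At an unadjusted p under 0.05 there were 3 members in replicates 1-3 (Hoxa7 at 0.93, Hoxa2 at -0.80 and Hoxb3 at -0.93), 1 in replicates 4-6 (Hoxd10 at -3.67) and 1 in replicates 7-9 (Hoxb7 at -2.38, log2 fold changes), against 946, 479 and 590 of all genes tested in these fits, so these counts stand out little from those of all genes. In replicates 7-9, Hoxb7 stood at 147, 163 and 762 CPM in control libraries 7, 8 and 9 and at 162, 23.0 and 30.6 CPM with dDAVP. The library dDAVP 7 thus lay among the controls. Whether the treatment difference varied between sets was tested as an interaction, which called 0 of 19 members and 0 of 10121 genes (0%), with 1 member and 671 genes at an unadjusted p under 0.05.

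Leaving out dDAVP 7, the library nearest to control 8, changed the count of 0 within replicates 7-9 and in the interaction. In replicates 7-9, Hoxd3 then differed by -3.98 between dDAVP and control (SE 0.95, edgeR adjusted p = 0.0490), with 98 of 11819 genes called (0.829%), and it was the 1 member called in the interaction (adjusted p = 0.0480, 45 of 10202 genes, 0.441%). With that library kept, its difference was -1.98 (SE 0.97, adjusted p = 0.938). Hoxd3 stood at 103, 26.8 and 63.6 CPM in control libraries 7, 8 and 9 and at 42.9, 3.95 and 4.56 CPM in dDAVP libraries 7, 8 and 9.

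The sets of replicates differed in many Hox genes, as they did in many of all genes. Between replicates 4-6 and 1-3, 8 of 19 Hox genes were called (42.1%) against 55.9% of all genes tested; between 7-9 and 1-3, 10 of 19 (52.6%) against 63.7%; and between 7-9 and 4-6, 10 of 19 (52.6%) against 48.2%. By direction, 6 of 19 were higher in 4-6 than in 1-3 (31.6% against 34.1% of all genes) and 2 lower (10.5% against 21.8%), 8 higher in 7-9 than in 1-3 (42.1% against 39%) and 2 lower (10.5% against 24.7%), and 6 higher in 7-9 than in 4-6 (31.6% against 28.1%) and 4 lower (21.1% against 20.1%). The Hox shares lay near those of all genes, so the counts are no result about Hox genes in particular. The median difference over all genes was 0.51, 0.54 and 0.31 on the log2 scale, and over the Hox genes 1.11, 0.98 and 0.60. Of all calls, 61%, 61.2% and 58.3% were higher in the later set, and with library totals in place of TMM factors 62.3%, 87.9% and 86.9%, when the median over all genes became 0.52, 1.92 and 1.68. Fitted with dDAVP libraries only, calls did not pass for Hoxb9, Hoxb13 and Hoxd4 between 4-6 and 1-3, for Hoxa3, Hoxa5, Hoxa9, Hoxb2, Hoxb3 and Hoxd3 between 7-9 and 1-3, and for Hoxa2, Hoxa7, Hoxb2 and Hoxb9 between 7-9 and 4-6. With control libraries only they did not pass for Hoxa5 and Hoxb3 between 7-9 and 1-3 and for Hoxa2, Hoxa3, Hoxb3, Hoxb7 and Hoxb9 between 7-9 and 4-6. The epithelial marker sums given above moved with the sets too, though the 5 markers did not move together. Between 4-6 and 1-3, Cdh1 (-5.07), Krt18 (-4.19) and Krt8 (-2.06) were lower, while Krt19 (-0.21) and Epcam (0.86) did not pass. Between 7-9 and 1-3, Cdh1 (-4.24), Epcam (-2.09) and Krt18 (-2.01) were lower, while Krt8 (0.66) and Krt19 (0.29) did not pass. The part of epithelial content in the Hox differences, and that of other cell makeup, was not tested. In bulk RNA, fewer cells that express a gene and less of its RNA per cell cannot be told apart.

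**Figure D3:**
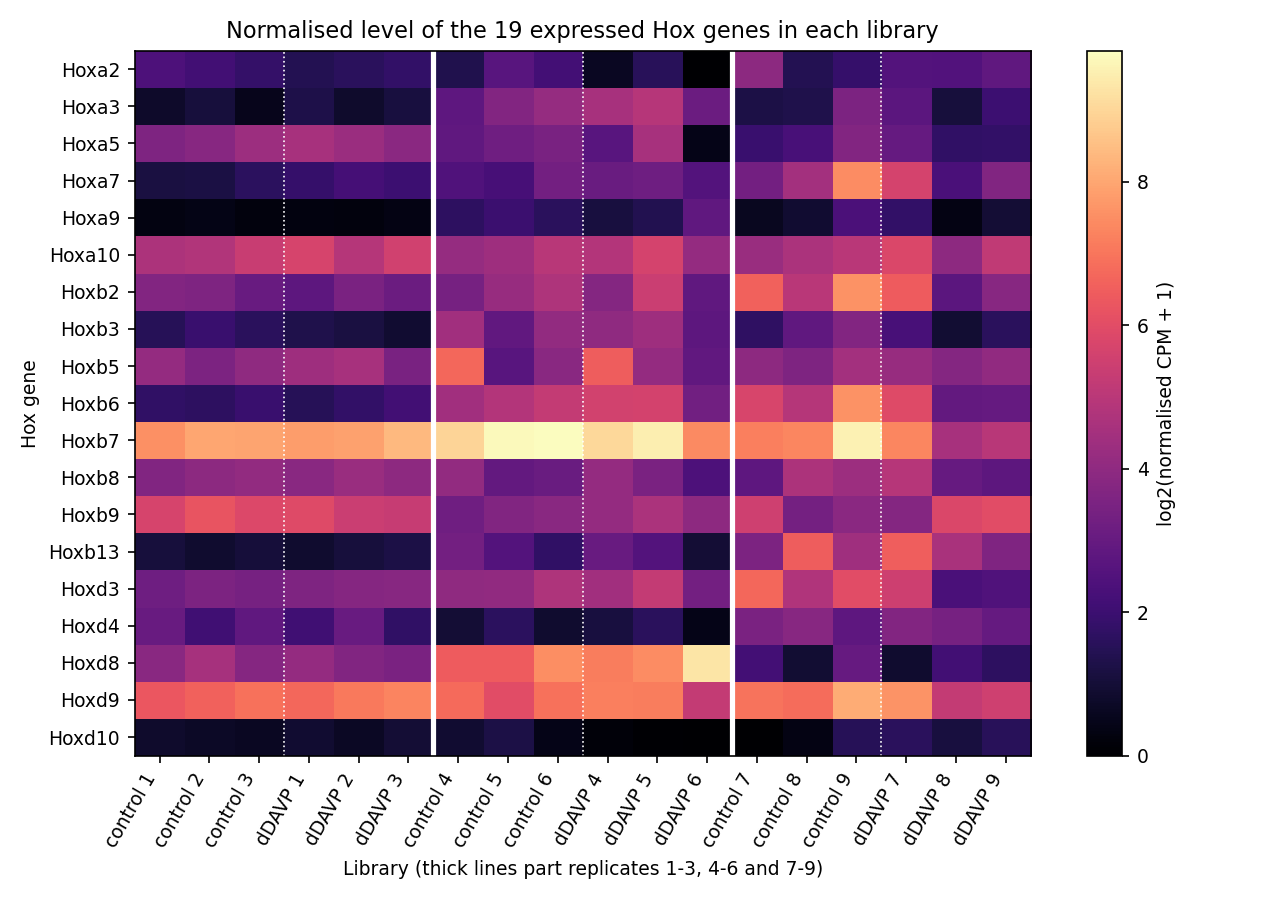
Level of the 19 expressed Hox genes (rows, by cluster and paralog number) in each of 18 libraries (columns), as log2(normalised CPM + 1). The rows of Hoxd8, Hoxb6, Hoxb13 and Hoxa9 change between the sets of replicates, whereas Hoxa10 stays between 14.5 and 55.3 CPM and Hoxb8 between 4.31 and 29.5 CPM.

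Hoxd8 differed between every pair of sets. It ran from 10.3 to 22.4 CPM in replicates 1-3 (median 12.99), from 84.2 to 636 CPM in replicates 4-6 (median 157) and from 0.798 to 6.98 CPM in replicates 7-9 (median 2.77). These ranges did not overlap. The differences were 3.88 between 4-6 and 1-3 (SE 0.60, adjusted p = 1.11e-05), -2.29 between 7-9 and 1-3 (SE 0.55, adjusted p = 0.00105) and -6.17 between 7-9 and 4-6 (SE 0.67, adjusted p = 1.34e-07), all by edgeR. With library totals in place of TMM factors, the second of these was -0.97 and no longer passed (adjusted p = 0.103). The highest value was in dDAVP 6, the library with the smallest TMM factor, 0.306. Without that library the difference between 4-6 and 1-3 was 3.19 and that between 7-9 and 4-6 was -5.52. On the FPKM scale, Hoxd8 averaged 5.94 ± 2.44 (SD) in replicates 1-3, 67.0 ± 29.8 in 4-6 and 3.03 ± 2.03 in 7-9, and its highest value was 101 FPKM. The antisense gene Hoxd3os1, which overlaps Hoxd8 on the other strand, ran from 0.0242 to 5.27 CPM in replicates 4-6, against at most 0.169 CPM in replicates 1-3 and 0.310 CPM in replicates 7-9. Because the use of strand in the counting is not stated, reads of the 2 cannot be told apart. The same limit holds for Hoxa3, Hoxa5, Hoxa7, Hoxb2, Hoxb3, Hoxb5, Hoxb6, Hoxd3 and Hoxd4, which also overlap annotated genes on the other strand.

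The direct neighbour of Hoxd8, Hoxd9, 4406 bases away and without an annotated antisense overlap, did not follow it. Hoxd9 ran from 78.4 to 156 CPM in replicates 1-3 (median 112), from 36.5 to 144 CPM in 4-6 (median 113) and from 37.1 to 278 CPM in 7-9 (median 118). The sets overlapped, and no difference passed the test: -0.18 (interval -1.10 to 0.75), 0.18 (interval -0.76 to 1.12) and 0.36 (interval -0.58 to 1.29), in the order 4-6 against 1-3, 7-9 against 1-3 and 7-9 against 4-6. On the other side of Hoxd8, Hoxd3 ran from 8.19 to 13.02 CPM in replicates 1-3, from 8.98 to 37.0 CPM in 4-6 and from 3.95 to 103 CPM in 7-9. It was called between 7-9 and 1-3 (1.77, SE 0.60, adjusted p = 0.0139), a call lost without control 7 (1.23) or without dDAVP 7 (1.46), with voom quality weights (1.09) and with dDAVP libraries only (0.25, adjusted p = 0.828).

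Hoxd4 was lowest in replicates 4-6, at 0.359 to 2.10 CPM, below both replicates 1-3 (2.37 to 7.33) and 7-9 (6.06 to 13.3). Its differences were -1.95 between 4-6 and 1-3 (SE 0.49, adjusted p = 0.00189) and 2.93 between 7-9 and 4-6 (SE 0.50, adjusted p = 6.31e-05), by edgeR. Hoxd4 and Hoxd8, of the same cluster, thus differed in opposite directions in both contrasts. Hoxd10, at the end of the expressed block, reached at most 0.958, 1.40 and 2.04 CPM in the 3 sets, and none of its differences passed.

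Hoxb13 differed from set to set in 1 direction. It ran from 0.824 to 1.35 CPM in replicates 1-3 (median 1.12), from 0.958 to 8.95 CPM in 4-6 (median 4.90) and from 10.6 to 90.7 CPM in 7-9 (median 21.9). The ranges of 7-9 and of each other set did not overlap, while those of 1-3 and 4-6 met through dDAVP 6, the lowest of its set. The differences were 2.20 between 4-6 and 1-3 (SE 0.59, adjusted p = 0.00318), 5.25 between 7-9 and 1-3 (SE 0.66, adjusted p = 1.29e-06) and 3.05 between 7-9 and 4-6 (SE 0.59, adjusted p = 0.000220), by edgeR. The highest values, 87.9 CPM in control 8 and 90.7 CPM in dDAVP 7, were in 2 libraries that were each other's best match over the other genes; without one or the other, the difference between 7-9 and 1-3 was 4.66 or 4.56.

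Hoxb6 and Hoxb3, other cluster B members, were higher in both later sets than in replicates 1-3. Hoxb6 ran from 1.88 to 3.33 CPM in replicates 1-3 and did not overlap with 8.62 to 48.8 CPM in 4-6 or 6.64 to 188 CPM in 7-9. Its differences from replicates 1-3 were 3.68 (SE 0.66) and 4.37 (SE 0.69). Hoxb3 ran from 0.846 to 2.79 CPM in 1-3, from 5.87 to 20.7 CPM in 4-6 and from 0.905 to 12.04 CPM in 7-9. It was 3.13 higher in 4-6 than in 1-3 (SE 0.55) and differed by -1.83 between 7-9 and 4-6 (SE 0.53), a call lost with library totals (-0.77), with limma on FPKM (-0.53) and with control libraries only (-0.97). Its call between 7-9 and 1-3 (1.30, adjusted p = 0.0321) was lost in 7 of the 18 fits that left out 1 library, where it came to as little as 0.69.

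Hoxb7, the most abundant member, ran from 184 to 334 CPM in replicates 1-3 (median 245), from 170 to 906 CPM in 4-6 (median 616) and from 23.0 to 762 CPM in 7-9 (median 155). The ranges overlapped. It passed only between 7-9 and 4-6 (-1.73, SE 0.58, adjusted p = 0.0173), and did not pass without dDAVP 9 (-1.38, adjusted p = 0.0535) or with library totals (-0.98). Its values against replicates 1-3 were 1.16 for 4-6 (interval 0.00 to 2.33) and -0.57 for 7-9 (interval -1.78 to 0.65). Hoxb9, 2 genes away from Hoxb7, went the other way: it was lower in 4-6, at 8.36 to 24.7 CPM, than in 1-3, at 39.2 to 73.5 CPM (-1.93, SE 0.45, adjusted p = 0.000992). In replicates 7-9 Hoxb9 ran from 9.32 to 63.0 CPM, and its call against 4-6 (1.13) was lost in 8 of 18 fits without 1 library.

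**Figure D4:**
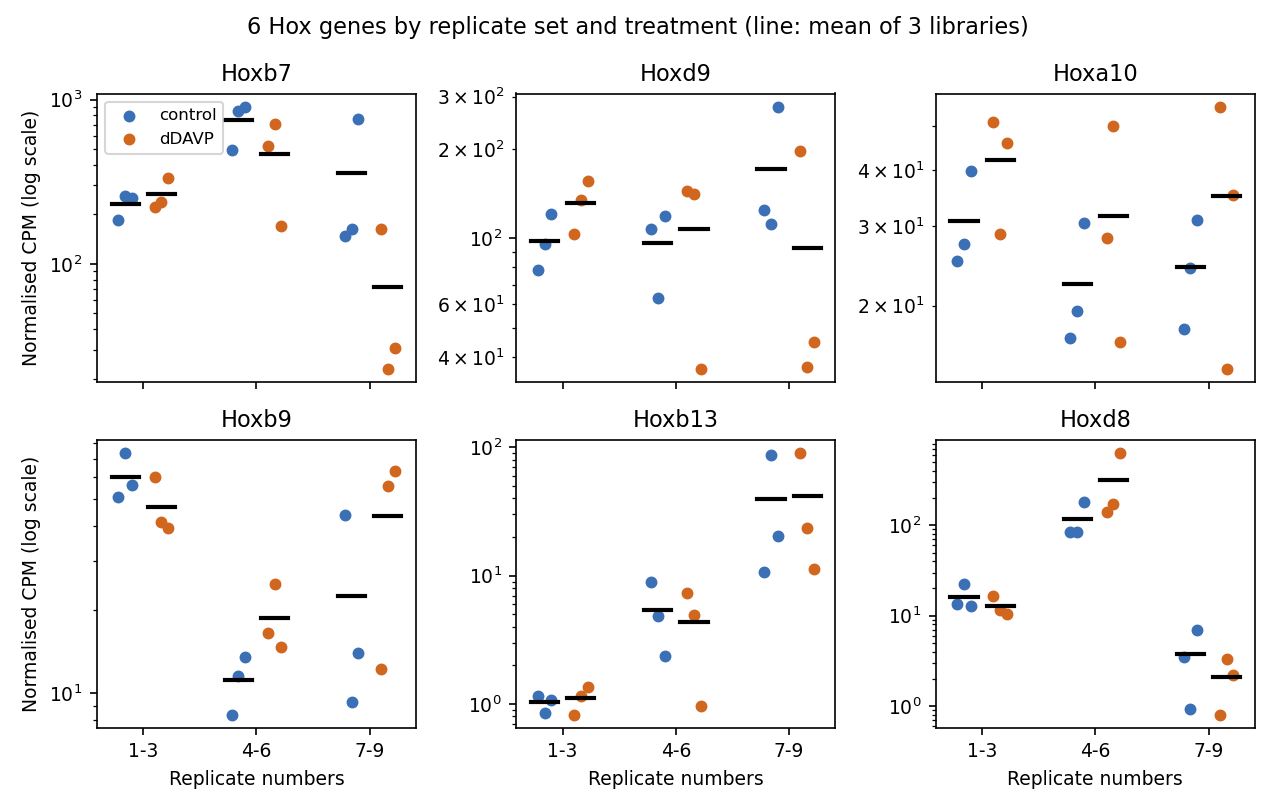
Normalised CPM (log axes, scaled per panel) of 6 Hox genes by set of replicates; points are libraries, blue control and orange dDAVP, and lines are means of 3 libraries. Hoxd8 separates all 3 sets and Hoxb13 sets 7-9 apart, while control and dDAVP points overlap within most sets. Hoxb7 reaches its lowest values on this scale, 23.0 and 30.6 CPM, in dDAVP 8 and 9, the libraries with the largest TMM factors.

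Hoxb2, the gene at the anterior end of the expressed part of cluster B, ran from 5.81 to 11.9 CPM in replicates 1-3 and from 5.62 to 190 CPM in 7-9, a difference of 2.84 (SE 0.63, adjusted p = 0.000515, edgeR). Its difference between 7-9 and 4-6 was 1.72, lost without control 4, control 5, control 9 or dDAVP 7. Hoxb5 did not pass in any contrast. Its values of 102 CPM in control 4 and 87.8 CPM in dDAVP 4 stood above all its others, which reached 23.2 CPM. Hoxb8 ran from 11.8 to 17.96, from 4.31 to 16.3 and from 5.83 to 29.5 CPM in the 3 sets, and did not pass in any either.

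In cluster A, Hoxa3 and Hoxa9 were higher in both later sets than in replicates 1-3, Hoxa7 was higher in 7-9 than in either other set, and Hoxa10 did not pass in any contrast. Hoxa3 ran from 0.451 to 1.42 CPM in replicates 1-3, from 6.03 to 29.7 CPM in 4-6 and from 1.12 to 10.6 CPM in 7-9. It was 4.06 higher in 4-6 than in 1-3 (SE 0.63, adjusted p = 1.32e-05), and its difference between 7-9 and 4-6 was -1.98 (SE 0.58), a call lost with library totals (-1.10), with limma on FPKM (-0.90) and with control libraries only (-1.29). Its call between 7-9 and 1-3 (2.08) was lost without control 9 (1.07). Hoxa7 ran from 1.22 to 3.63 CPM in 1-3, from 3.70 to 9.00 CPM in 4-6 and from 4.04 to 174 CPM in 7-9, and was 4.22 higher in 7-9 than in 1-3 (SE 0.75, adjusted p = 5.21e-05) and 2.79 higher than in 4-6 (SE 0.70), while its 1.43 between 4-6 and 1-3 did not pass (adjusted p = 0.0697). Its highest value was in control 9, as it was for Hoxb2 and Hoxb6, and without that library these differences between 7-9 and 1-3 were 2.85 (Hoxa7), 2.19 (Hoxb2) and 3.47 (Hoxb6), all still called.

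Hoxa9 did not pass 0.316 CPM in replicates 1-3, ran from 1.22 to 6.35 CPM in 4-6 and from 0.286 to 4.17 CPM in 7-9, and was 3.51 higher in 4-6 (SE 0.75) and 2.67 higher in 7-9 (SE 0.72) than in 1-3. The microRNA gene Mir196b, annotated within Hoxa9 on the same strand, had 338 counts in 6 libraries. Hoxa5 was lower in 7-9, at 2.34 to 11.9 CPM, than in 1-3, at 11 to 23.2 CPM (-1.71, SE 0.60, adjusted p = 0.0168), a call lost with library totals (-0.67). Hoxa2 was called between 7-9 and 4-6 (1.68, adjusted p = 0.0468), which was lost in 14 of 18 fits without 1 library. Leaving out control 9 moved 11 of the 28 called differences between sets by over 1.5 times. Besides those given above, Hoxa9 then came to 1.80, Hoxa5 to -2.36 and Hoxd8 to -2.99 between 7-9 and 1-3, and Hoxa3 to -2.77, Hoxa7 to 1.52 and Hoxb7 to -2.51 between 7-9 and 4-6. Hoxa10, next to the silent Hoxa11, ran from 25.2 to 51.2, from 16.6 to 50.0 and from 14.5 to 55.3 CPM in the 3 sets. Its differences were -0.44 (interval -1.19 to 0.32), -0.30 (interval -1.05 to 0.45) and 0.13 (interval -0.62 to 0.88).

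**Figure D5:**
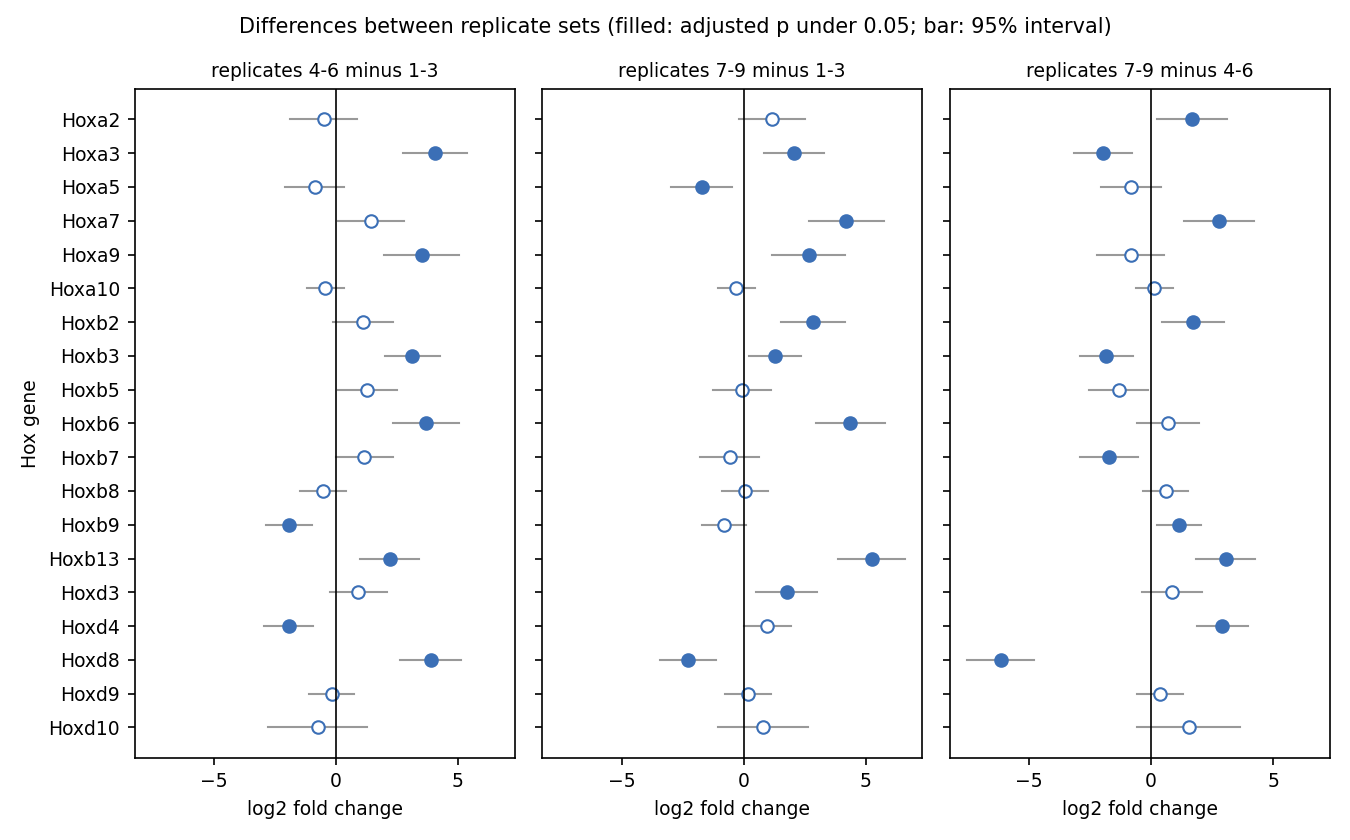
Fitted log2 differences between sets of replicates for the 19 tested Hox genes; bars are 95% intervals, and filled points had an edgeR adjusted p under 0.05. Values run from -6.17 (Hoxd8, 7-9 against 4-6) to 5.25 (Hoxb13, 7-9 against 1-3), and Hoxa10, Hoxb5, Hoxb8, Hoxd9 and Hoxd10 are open in all 3 panels.

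The TALE homeodomain proteins (Pbx, Meis and Pknox), which bind DNA together with Hox proteins, had 7 of 9 genes tested, and Meis1 and Pknox2 had 0 counts. None was called with dDAVP. Meis3, Pbx4 and Pbx2 were higher in replicates 4-6 than in 1-3 (3.32, 2.78 and 1.50) and in 7-9 than in 1-3 (4.78, 3.46 and 2.89), and 4 of 7 did not pass in either. The 3 of 7 called in each of the 3 contrasts stand beside 55.9%, 63.7% and 48.2% of all genes. Between 7-9 and 4-6, 2 were higher (Pbx2 at 1.40 and Meis3 at 1.46) and Meis2 was lower (-1.85). Median differences of the 7 were 1.26, 0.64 and 0.68 against 0.51, 0.54 and 0.31 over all genes.

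Polycomb group proteins keep silent Hox genes repressed, and 26 of 27 listed genes were tested. None was called with dDAVP (median 0.00). In the order of contrasts above, 12 were higher and 4 lower, 13 higher and 7 lower, and 5 higher and 8 lower. These 16, 20 and 13 of 26 also stand beside 55.9%, 63.7% and 48.2% of all genes called, and are read as nothing particular to Polycomb genes. Pcgf2, Pcgf5 and Phc3, subunits of Polycomb repressive complexes of the PRC1 type, were higher in 4-6 than in 1-3 (4.05, 3.22 and 3.65), and the ubiquitin ligase Rnf2, Phc3 and Pcgf5 were lower in 7-9 than in 4-6 (-4.75, -4.79 and -3.10). Pcgf6 and Rbbp7 were lower and Cbx2 higher in 7-9 than in 1-3 (-3.97, -2.48 and 2.93). Of 10 Trithorax genes and demethylases of H3K27, which counter Polycomb, 0 were called with dDAVP; 3 were higher and 3 lower, 3 higher and 2 lower, and 1 higher and 2 lower between the sets, that is 6, 5 and 3 of 10 beside the same shares of all genes. Kdm6b, a demethylase of H3K27, ran from 0.422 to 1.13 CPM in replicates 1-3. It ran from 66.2 to 629 CPM in 4-6 and from 6.04 to 60.7 CPM in 7-9. Its difference was 7.99 between 4-6 and 1-3 (SE 0.76, adjusted p = 1.36e-08, edgeR) and 4.75 between 7-9 and 1-3. Dpy30 (-3.05 and -3.86) and Psip1 (-1.84 and -3.46) were lower in these contrasts. Between 7-9 and 4-6, Kdm6b (-3.24) and Psip1 (-1.63) were lower and Men1 (0.97) was higher.

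Among transcripts within the clusters that do not code for protein, 12 of 18 listed names had a row, 5 had counts and 0 passed the filter; Hotair and Hottip were at 0. Evx1 and Evx2, which lie beside the clusters, had 0 counts. Of 6 Caudal and ParaHox genes, 0 were tested with all libraries, and Pdx1 had most counts, 1165. Of 14 genes of the nephric lineage that Hox10 and Hox11 proteins are known to act with or on, 5 were tested and 0 were called with dDAVP. Six2, a marker of nephron progenitors, Wt1 and Itga8 had 0 counts. Pax8, a factor of the nephric duct, was the most abundant at 70.9 ± 42.1 FPKM (SD, n = 18) and was lower in both later sets than in 1-3 (-1.94 and -1.56), while Pax2 was higher (3.52 and 3.13) and Osr1 was higher by 1.66 and 6.35.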

How the data were processed

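RNA sequencing of 18 mpkCCD libraries, 9 control and 9 dDAVP, was used, grouped by the titles in the labels. The submitters' processing notes name the tools STAR (2.4.0.1), SAMtools and HTSeq, and the build mm10. The deposited FPKM are labelled RefSeq, while the annotation of the counts and the strand setting are not given in the sources used here. Overlaps between genes were read from GENCODE M21, whose gene models may differ from RefSeq. The labels' protocols give 2 ways of library preparation and do not assign libraries to them. The deposited table holds the authors' raw count per gene and library, and a second deposited table holds FPKM, which the authors scaled to gene length and library. Spreadsheet software had turned 27 symbols into dates, none of them a Hox gene.

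Counts were normalised by TMM and tested with edgeR 4.0.16 (quasi-likelihood, filterByExpr, 10121 genes kept, terms for replicate set and treatment, two-sided, Benjamini-Hochberg over all genes tested, threshold 0.05); edgeR gave every adjusted p in the text unless another tool is named. Intervals are 95%. FPKM were used to compare genes; limma 3.58.1 tested log2(FPKM + 0.1) as an alternative. Other settings were DESeq2 1.42.0, voom with sample quality weights, robust fits, other normalizations, filters (at least 1 CPM in 9 libraries, or none), thresholds of expression, treatments taken singly, sets or single libraries left out, and the replicate number as a block. R 4.3.3, Python 3.11.15, numpy 2.4.6 and matplotlib 3.10.9 were used. The fits were tested on simulated data with known changes.

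Replicates were compared for duplicates: the lowest chi-square per degree of freedom was 65.9 in control and 104 in dDAVP, so no library was counted as a copy. Deviations from the group means correlated between libraries of equal number at r = 0.40 to 0.93 across genes, which are not independent, and at -0.71 to 0.43 once set means were removed. The first measure includes what the libraries of a set share. By the second, some libraries of equal number deviated together and others in opposite directions. A pairing by number is thus not shown by the data, and the labels give none. Totals were 22.2 to 105.9 M counts; floors of 3 counts cover counting error only, as PCR copies were not marked by molecular identifiers.

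Positions were read from GENCODE M21 (GRCm38, mm10) and promoters from RefSeq on GRCm38.p6, from 250 bases before the start up to it. All 38 Hox genes were accounted for, with statistics for those expressed or called; in each related list up to 3 called genes with the smallest adjusted p were named, or else those highest in FPKM. Genes named in lists for a count of 0 or for their place beside a Hox gene, and Kdm6b's values by library, were chosen after their values were seen. The Hox genes, lists and tests were chosen with earlier results of these data known.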

Additional observations from a re-analysis of the deposited data

Results flagged for a closer look

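In each treatment group of 9 libraries, a value was singled out where its gap to the nearest library took an unusually large part of the group's range on the log2(CPM + 1) scale (Dixon's test at 95%). Of 38 such groups of the 19 expressed Hox genes, 5 were singled out. Chance gives about 1 in 20 for independent groups drawn from a single population. These groups pool differing sets of replicates and share libraries, so the 5 cannot be set against that rate. Hoxb5 stood at 102 CPM in control 4, with the next control library at 21.0 CPM, and at 87.8 CPM in dDAVP 4, with the next dDAVP library at 23.2 CPM. The same gene was thus highest in the library numbered 4 of both groups. Hoxd9 stood at 278 CPM in control 9, with the next control library at 125 CPM. Hoxa2 stood at 14.4 CPM in control 7, with the next at 5.30 CPM, and Hoxa7 at 49.6 CPM in dDAVP 7, with the next at 11.5 CPM. No cause of these values was tested.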

How the results depend on the processing

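The count of 0 Hox genes called with dDAVP was 0 under all 32 alternatives tried, among them the fit with the replicate number as a block (0 of 19 Hox genes, 0.00988% of all genes called), which also gave 0 within each set; the block changed no other call, and the contrasts between sets could not be blocked, since each number lies in 1 set. Without dDAVP replicate 7, 1 Hox gene was called within replicates 7-9 and 1 in the interaction; leaving out any other library gave 0. Between 7-9 and 1-3 the count of 10 became 6 with dDAVP libraries only, and between 7-9 and 4-6 the count of 10 became 6 with control libraries only, fits that hold fewer samples. Leaving out 1 library at a time gave 8 to 10 calls between 4-6 and 1-3, 8 to 11 between 7-9 and 1-3 and 7 to 11 between 7-9 and 4-6. Leaving out both libraries numbered 7 was chosen after seeing the data. Of 784 pairs of a called Hox gene and an alternative, 708 stayed past the threshold in the same direction, 76 no longer passed and 0 reversed. Between 18 and 20 Hox genes counted as expressed under 6 other definitions. The lowest of the expressed genes, Hoxa9 and Hoxd10, had medians of 0.912 and 0.714 CPM, and 3 counts came to as much as 0.359 CPM in dDAVP 6.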
